A study of Rattus norvegicus with 16 samples.

Results

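Collagens are the structural proteins of the extracellular matrix, and their genes are described here in the right ventricular wall of the rat heart. The family was taken as every gene whose symbol reads Col, a number, a and a number with nothing after it. Of the 17245 genes measured with a probe set of 1 symbol, 40 belonged to it. They were sorted by the kind of assembly the protein builds into 11 fibrillar, 3 network, 6 basement membrane, 7 FACIT (fibril-associated), 6 beaded, 2 multiplexin and 3 transmembrane collagens, with Col7a1 of anchoring fibrils and Col26a1 standing alone. One further probe set that carries Col20a1 together with another symbol was left out.

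Every array was made from right ventricular wall of male Wistar rats of 160 to 180 g. The study gave its animals either a band around the pulmonary artery, which raises the pressure the right ventricle pumps against, or a sham operation, and the labels do not tie an operation to a sample. The groups were RVF+ (5 arrays, numbered 8 to 12), RVF (4 arrays, 13 to 16) and CON, the controls (7 arrays, 1 to 7). RVF+ and RVF are the labels' own names and are not spelled out, while the series title speaks of clinical symptoms of right ventricular failure under a chronic pressure load. No genotype, drug or time point is given, and no label states that arrays of a group stem from different animals, so the p-values describe the spread between arrays, which may be technical.

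A collagen molecule is 3 chains wound into a triple helix. Fibrillar collagens I and III form the tensile fibres between heart muscle cells, with collagen V inside the fibril. FACIT collagens decorate the surface of fibrils, collagen IV forms the sheet under endothelium and around each muscle cell, collagen VI forms beaded filaments at the cell surface, and collagen VIII forms short-chain networks in vessel walls. In the heart most collagen I and III is made by fibroblasts, and a pressure load is known to raise their output.

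Values are log2 intensities, so that a difference of 1 is a 2-fold change, and levels of different genes are not set against each other because each has its own probe set. Differences of collagens are given with their standard error, and adjusted p-values are two-sided, from limma with Benjamini-Hochberg adjustment over all 17245 genes at a threshold of 0.05. The median level over all genes was 5.57, and 24 of the 40 collagens lay below it. One array stood apart: RVF+ 8 differed from the CON mean by a root mean square of 1.01 over the collagens and 0.711 over all genes. The other RVF+ arrays had 0.384 to 0.576 and 0.326 to 0.448. In RVF the ranges were 0.530 to 0.611 and 0.358 to 0.417, and in CON 0.135 to 0.195 and 0.157 to 0.212. Values without RVF+ 8 therefore stand beside the results that rest on that array. The distance over the collagens uses the same values as those results, so this choice was not made ahead of them.

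In RVF+ against CON 14 collagens rose and 2 fell, where 14.1% of all genes were higher and 13.6% lower, 27.7% in either direction. In RVF against CON 11 rose and 1 fell, where 8.86% of all genes were higher and 8.29% lower, 17.1% in either direction. In such bulk samples fewer cells of a type and less RNA per cell cannot be told apart. The 2 comparisons share the CON arrays, so their values are given side by side and are not independent of each other. The median difference of the 40 genes was 0.10 in RVF+ and 0.12 in RVF, beside -0.012 and -0.0087 over all genes. The calls lay mostly among collagens at or above the median level of all genes. Of those 16, 11 rose and 1 fell in RVF+ and 9 rose in RVF. Of the 24 below it, 3 rose and 1 fell in RVF+ and 2 rose and 1 fell in RVF. In a fit of genes at or above that level alone, 14 of 16 collagens were higher in RVF+ and 11 in RVF. There 21.4% and 15.6% of the genes tested were higher. Level here is the mean over all 16 arrays, RVF+ and RVF included. A rise can therefore itself bring a gene into this set and this fit. Col12a1 entered so, with means of 5.14 in CON, 6.57 in RVF+ and 6.07 in RVF beside the median of 5.57. The part of signal level in the class counts was not tested. In RVF+ 5 collagens had every array above all CON arrays and 1 had every array below, where 6.96% and 7.63% of all genes did. In RVF the counts were 13 above and 2 below, where 9.83% and 9% of all genes did. Without RVF+ 8 the counts were 12 higher and 2 lower in RVF+ against CON, where 12.9% and 12% of all genes passed, and Col4a2 and Col16a1 were the 2 calls lost. In RVF against CON, which that array enters only through the shared estimate of the spread, they were 16 higher and 2 lower, where 13.4% and 11.2% of all genes passed.

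**Figure D1:**
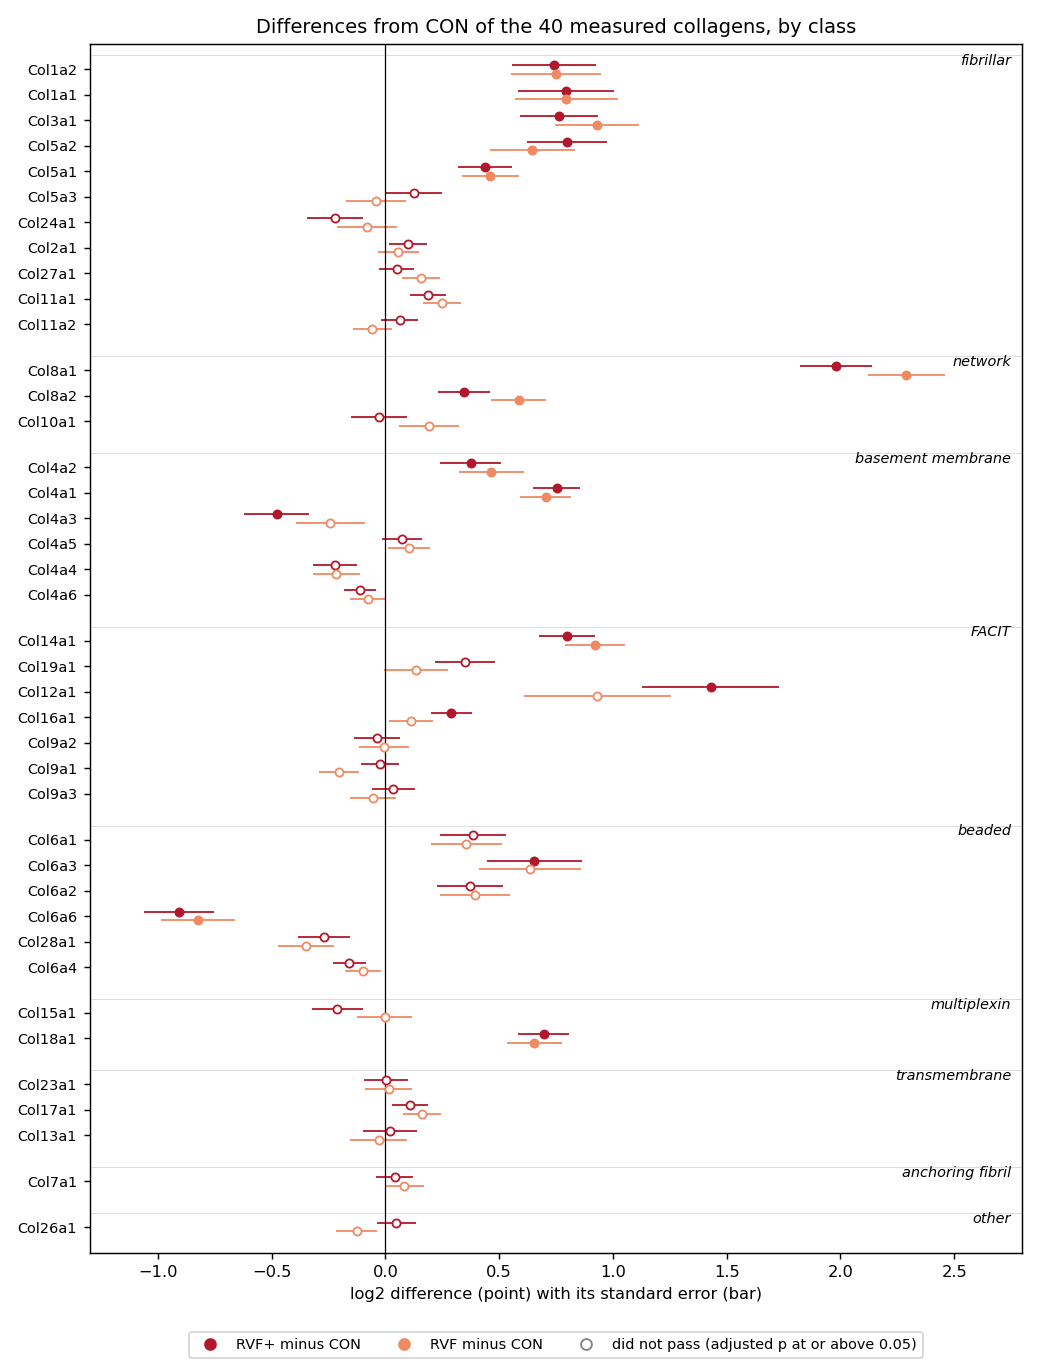
Log2 difference from CON (point) and its standard error (bar) of the 40 collagens, grouped by class, for RVF+ in dark red and RVF in orange; open points did not pass. Col8a1 lies furthest to the right at 1.98 in RVF+ and 2.29 in RVF, and Col6a6 furthest to the left at -0.91 and -0.82.

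The network class held the largest change of the family. Col8a1 encodes a chain of collagen VIII, a short-chain collagen of vessel walls and of the membrane behind the cornea. Its level was 8.74, 8.20, 7.92, 7.88 and 8.24 in RVF+, 8.45, 8.38, 8.32 and 8.88 in RVF and 5.83 to 6.65 (median 6.24) in CON. Every RVF+ and RVF array lay over 1 unit above the highest CON array. The difference was 1.98 ± 0.16 in RVF+, a 3.95-fold rise, and 2.29 ± 0.17 in RVF, a 4.89-fold rise (adjusted p = 4.86e-07 and 3.28e-07). Without RVF+ 8 the RVF+ difference was 1.84 ± 0.14.

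Col8a2, which encodes the partner chain of collagen VIII, moved the same way by less. It stood at 4.31, 4.87, 4.37, 4.27 and 4.64 in RVF+, 4.83, 4.56, 4.85 and 4.69 in RVF and 3.77 to 4.31 (median 4.22) in CON. All 4 RVF arrays and 4 of 5 RVF+ arrays exceeded every CON array, though RVF+ 8, RVF+ 10 and RVF+ 11 lay within 0.1 of the CON maximum. The rise was 0.35 ± 0.11 in RVF+ (adjusted p = 0.0293) and 0.59 ± 0.12 in RVF (adjusted p = 0.00261). The RVF+ call ended without RVF+ 9, RVF+ 12, CON 6 or CON 7 and after median centring (adjusted p = 0.0537), with differences of 0.25 to 0.40 over the arrays left out. A minimum change of 1.2-fold ended it too, and the RVF call with it. Col10a1, the collagen of growth plate cartilage, was dim and did not pass, with -0.026 ± 0.12 in RVF+ and 0.19 ± 0.13 in RVF.

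The stretch of 250 bases before the Col8a1 start (RefSeq, GRCr8, chr11:56246532-56246781, plus strand) is shown because this gene changed most; capitals mark GC boxes (GGGCGG or its reverse complement CCGCCC), to which Sp1-type factors are known to bind, and the SMAD-type box CAGAC or GTCTG.
Col8a1: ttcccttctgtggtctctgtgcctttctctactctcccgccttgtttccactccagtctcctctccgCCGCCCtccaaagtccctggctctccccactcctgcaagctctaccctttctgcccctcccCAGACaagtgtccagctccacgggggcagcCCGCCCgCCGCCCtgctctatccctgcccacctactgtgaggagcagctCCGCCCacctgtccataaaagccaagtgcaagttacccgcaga
It holds 4 GC boxes, all on the other strand, and 1 CAGAC. A GC box occurs in 30.5% of all 33469 promoter windows of this length and in 18 of the 33 measured collagens with a RefSeq window, and the SMAD-type box in 42.9% of all and 12 of 33. Col8a2 had 5 GC boxes and no SMAD-type box. A match of letters is a description of the window and shows no binding. No window was matched for Col1a1, Col2a1, Col3a1, Col6a2, Col9a3, Col12a1 and Col14a1.

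In the fibrillar class 5 of 11 genes rose in RVF+ and 5 in RVF, all of them chains of collagens I, III and V, and no other passed. Of all genes 14.1% were higher in RVF+ and 8.86% in RVF. Col1a1 and Col1a2 encode the chains of collagen I, the stiff fibre of scar and tendon. Col1a1 read 10.22, 9.26, 9.08, 8.52 and 9.06 in RVF+, 9.22, 9.41, 9.08 and 9.21 in RVF and 7.99 to 8.86 (median 8.45) in CON. RVF+ 8 was the highest of all arrays, and RVF+ 11 fell inside the CON range, whereas the 4 RVF arrays kept close together above it. The differences were 0.79 ± 0.21 in RVF+ (adjusted p = 0.00920) and 0.79 ± 0.23 in RVF (adjusted p = 0.0216), and 0.55 ± 0.15 in RVF+ without RVF+ 8. The RVF call ended when RVF 13 or RVF 14 was left out. A minimum change of 1.2-fold ended both calls, as it did both calls of Col1a2 and the RVF+ call of Col3a1.

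For Col1a2 the values were 10.41, 9.35, 9.24, 8.97 and 9.18 in RVF+, 9.49, 9.53, 9.33 and 9.40 in RVF and 8.35 to 8.99 (median 8.64) in CON. Again RVF+ 8 exceeded its group, by more than 1 unit, and 4 of 5 RVF+ and all 4 RVF arrays lay above CON. The gene rose by 0.74 ± 0.18 in RVF+ (adjusted p = 0.00574) and by 0.75 ± 0.20 in RVF (adjusted p = 0.0138), with 0.50 ± 0.11 in RVF+ without RVF+ 8. Col3a1 encodes the single chain of collagen III, the finer fibre of distensible tissue. It measured 9.74, 9.01, 8.71, 8.41 and 8.83 in RVF+, 9.08, 9.24, 8.94 and 9.17 in RVF and 7.86 to 8.55 (median 8.13) in CON. In RVF every array was above CON, and in RVF+ only RVF+ 11 was not. The rise was 1.70-fold in RVF+ (0.76 ± 0.17, adjusted p = 0.00304) and 1.91-fold in RVF (0.93 ± 0.19, adjusted p = 0.00194).

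The Col1a2 window is shown as the matched promoter of collagen I (GRCr8, chr4:33518307-33518406, plus strand, the first 100 of the 250 bases before the RefSeq start), with 3 motifs in capitals. They are the CCAAT box, whose reverse complement reads ATTGG, the TATA box, searched on both strands as TATAAA, and the SMAD-type box.
Col1a2: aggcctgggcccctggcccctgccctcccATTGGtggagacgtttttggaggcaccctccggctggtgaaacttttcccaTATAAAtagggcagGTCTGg
These 100 bases, the end of the window farthest from the RefSeq start, hold 1 CCAAT box on the other strand and 1 TATA box. They also hold 1 SMAD-type box on the other strand. The whole window of 250 bases has 1 CCAAT box, 1 TATA box and 2 SMAD-type boxes. Over whole windows of 250 bases, a CCAAT box occurs in 34% of all promoters and in 9 of 33 collagens. A TATA box occurs in 12.9% and 4 of 33.

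Collagen V sets the width of collagen I fibrils. Col5a2 was 8.07, 6.91, 6.85, 6.59 and 6.81 in RVF+, 7.04, 6.85, 6.77 and 6.92 in RVF and 6.10 to 6.33 (median 6.24) in CON. No RVF+ or RVF array overlapped CON, whose 7 arrays lay close together, and RVF+ 8 again stood above the rest. Its rise was 0.80 ± 0.18 in RVF+ (adjusted p = 0.00257), or 0.54 ± 0.077 without RVF+ 8, and 0.65 ± 0.19 in RVF (adjusted p = 0.0246, not passed when RVF 13, RVF 14 or RVF 16 was left out). Col5a1 showed 6.83, 6.58, 6.45, 6.02 and 6.17 in RVF+, 6.34, 6.60, 6.31 and 6.47 in RVF and 5.75 to 6.12 (median 6.02) in CON. RVF+ 11 was the 1 array of these groups inside the CON range. The difference was 0.44 ± 0.12 in RVF+ (adjusted p = 0.00935) and 0.46 ± 0.13 in RVF (adjusted p = 0.0168, not passed when RVF 14 was left out).

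The other 6 fibrillar genes did not pass in either comparison with all arrays. All of them lay below the median level of all genes. Col5a3, the third collagen V chain, had 0.12 ± 0.12 in RVF+ and -0.042 ± 0.13 in RVF. Col11a1, a minor fibrillar chain of cartilage, came closest, with 0.19 ± 0.079 in RVF+ (adjusted p = 0.0868) and 0.25 ± 0.085 in RVF (adjusted p = 0.0513), and it passed in RVF without RVF+ 8 (adjusted p = 0.0385). Col2a1 of cartilage, Col11a2, Col24a1 and Col27a1 ranged from -0.22 to 0.098 in RVF+ and from -0.081 to 0.16 in RVF, with mean levels of 4.26 to 4.81.

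**Figure D2:**
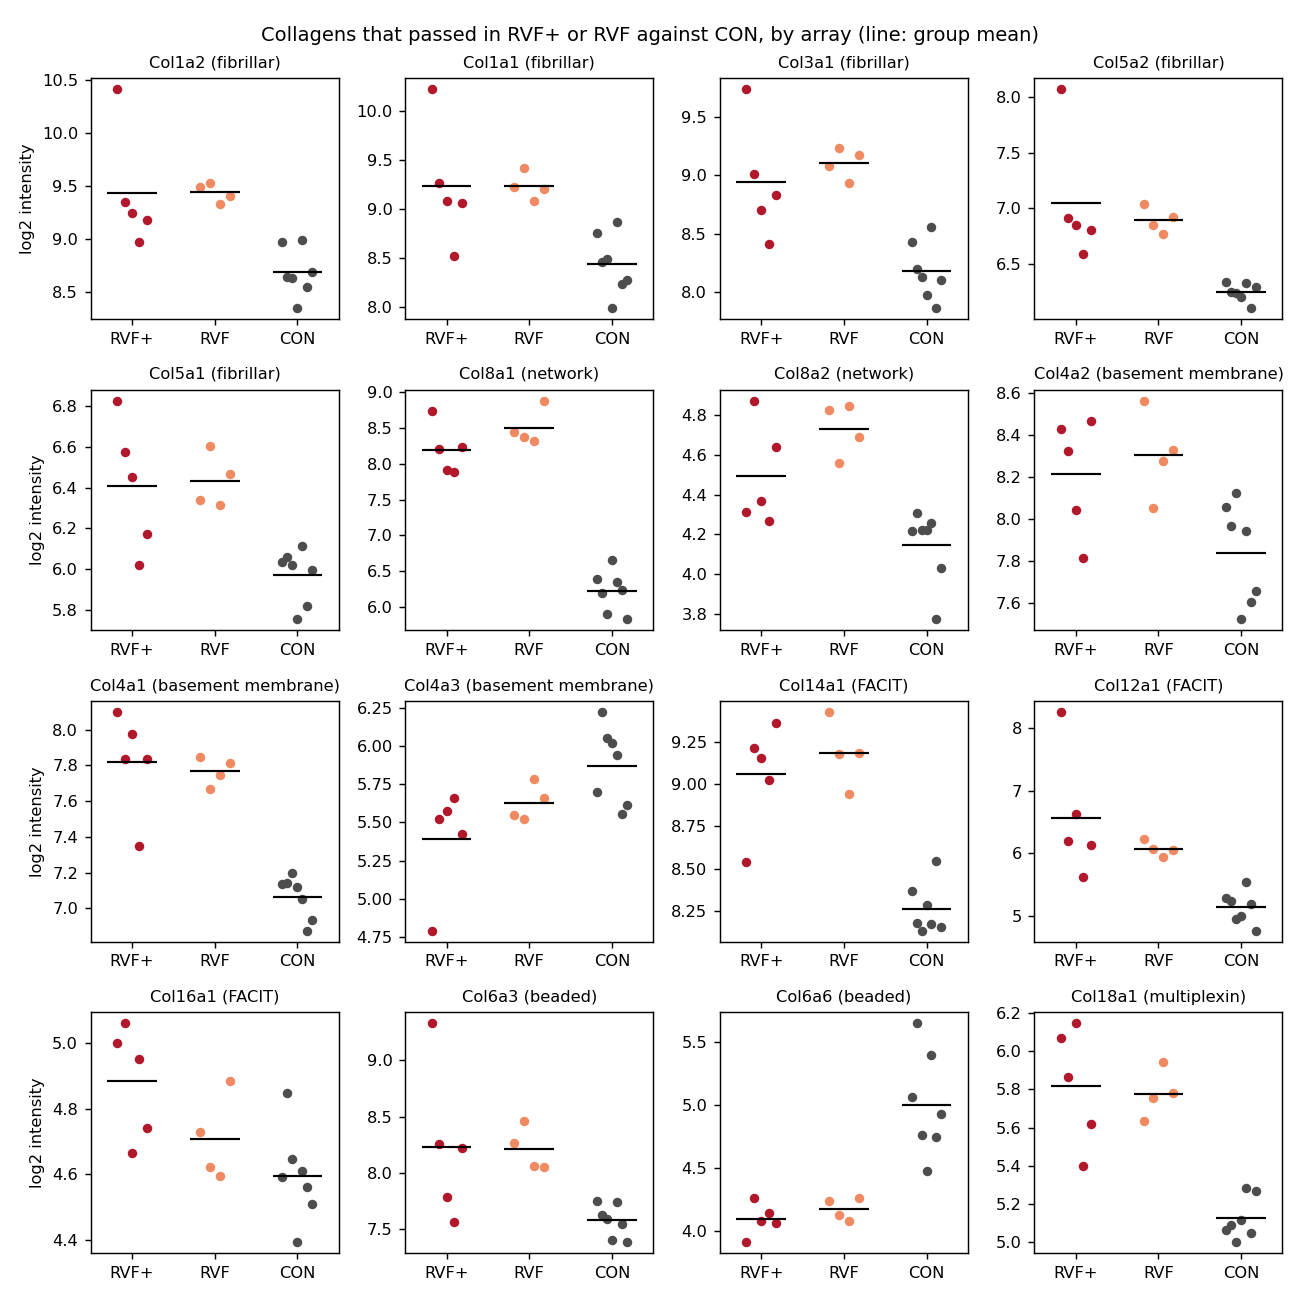
Log2 intensity of each array (point) and the group mean (line) for the 16 collagens that passed in RVF+ or RVF against CON, 1 panel a gene with its own vertical axis. RVF+ 8, the first RVF+ point, is the highest of its group for the fibrillar genes, while Col8a1 separates every RVF+ and RVF array from CON.

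The balance of collagen I to III was compared within each array, as the log2 difference of Col1a1 minus Col3a1, so that only its change between groups carries meaning. It was 0.48, 0.25, 0.37, 0.11 and 0.23 in RVF+ arrays 8 to 12, 0.14, 0.18, 0.14 and 0.035 in RVF arrays 13 to 16, and ran from 0.013 to 0.37 in CON. The groups overlapped. RVF averaged 0.12 ± 0.061 (SD, n = 4) and CON 0.26 ± 0.13 (SD, n = 7), a difference of -0.14 (two-sided exact permutation test over 330 splits, p = 0.0788, adjusted over 3 pairs p = 0.118). RVF+ averaged 0.29 ± 0.14 (SD, n = 5), which differed from CON by 0.030 (exact permutation p = 0.702) and from RVF by 0.17 (exact permutation p = 0.0714, adjusted 0.118). Without CON 4 the RVF difference from CON was -0.18 with an adjusted exact p of 0.0429. A changed balance was therefore not shown with all arrays.

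Basement membrane collagen IV moved in opposite directions within the class in RVF+. In RVF+ against CON 2 of 6 genes rose and 1 fell, and in RVF 2 rose and 0 fell (limma; of the genes lower in RVF only Col4a4 had an unadjusted p under 0.05, at 0.0499). Of all genes 14.1% were higher and 13.6% lower in RVF+, and 8.86% and 8.29% in RVF. The count of 1 lower gene in RVF+ is near that share. The 6 genes lie as head-to-head pairs on opposite strands, which in RefSeq GRCr8 leaves 76 bases between the starts of Col4a1 and Col4a2, 412 between Col4a3 and Col4a4, and 1414 between Col4a5 and Col4a6. Col4a1 and Col4a2 encode the chains of the collagen IV found in all basement membranes. Col4a1 was 8.10, 7.83, 7.97, 7.35 and 7.83 in RVF+, 7.85, 7.67, 7.75 and 7.81 in RVF and 6.87 to 7.20 (median 7.12) in CON. Every RVF+ and RVF array was above every CON array, with RVF+ 11 the nearest. The rise was 0.75 ± 0.10 in RVF+ and 0.70 ± 0.11 in RVF (adjusted p = 4.87e-05 and 0.000270).

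Col4a2 had 8.43, 8.33, 8.04, 7.81 and 8.47 in RVF+, 8.57, 8.05, 8.28 and 8.33 in RVF and 7.52 to 8.13 (median 7.94) in CON. The groups overlapped, since RVF+ 10, RVF+ 11 and RVF 14 were within the CON range. It passed narrowly, with 0.38 ± 0.13 in RVF+ (adjusted p = 0.0451) and 0.47 ± 0.14 in RVF (adjusted p = 0.0327). The RVF+ call was lost in 14 of 24 alternative settings, with adjusted p = 0.106 without RVF+ 8, and the RVF call in 7 of 24. The second probe set of the gene gave 0.49 and 0.48.

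Col4a3 and Col4a4 encode chains of the specialised collagen IV of kidney and lung basement membranes. Col4a3 read 4.79, 5.52, 5.57, 5.66 and 5.42 in RVF+, 5.55, 5.52, 5.78 and 5.66 in RVF and 5.56 to 6.22 (median 5.94) in CON. RVF+ 8 was far below the rest, and 3 of 5 RVF+ arrays were under every CON array. The fall was -0.48 ± 0.14 in RVF+ (adjusted p = 0.0173), or -0.33 ± 0.11 without RVF+ 8 (adjusted p = 0.0426). The call was lost with array weights (-0.35, adjusted p = 0.0522) and with a minimum change of 1.2-fold (adjusted p = 0.449). In RVF the difference was -0.24 ± 0.15 and did not pass (adjusted p = 0.307).

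Its neighbour Col4a4 had 4.53, 5.00, 5.18, 5.03 and 4.84 in RVF+, 4.95, 4.95, 4.89 and 4.90 in RVF and 4.99 to 5.38 (median 5.15) in CON. All RVF arrays were below CON, yet the differences of -0.22 ± 0.096 in RVF+ and -0.22 ± 0.10 in RVF did not pass (adjusted p = 0.0949 and 0.168). Col4a5 and Col4a6, the X-linked pair, had 0.073 ± 0.086 and -0.11 ± 0.071 in RVF+ and 0.10 ± 0.092 and -0.078 ± 0.076 in RVF, none of which passed. By sign alone, each of the first 2 pairs had both members on the same side of 0, and the third pair did not. Several of these differences did not pass, and a link with the pairing was not tested.

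The bases between the starts of Col4a1 and Col4a2 (RefSeq, GRCr8, chr16:84885521-84885596, plus strand) and the 250 bases before Col4a3, which reach towards Col4a4 (GRCr8, chr9:91323740-91323989, plus strand), are shown because each lies between a pair of genes read in opposite directions; GC boxes and SMAD-type boxes are in capitals.
Col4a1 and Col4a2: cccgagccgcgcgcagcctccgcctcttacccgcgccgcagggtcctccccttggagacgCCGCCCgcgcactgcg
Col4a3: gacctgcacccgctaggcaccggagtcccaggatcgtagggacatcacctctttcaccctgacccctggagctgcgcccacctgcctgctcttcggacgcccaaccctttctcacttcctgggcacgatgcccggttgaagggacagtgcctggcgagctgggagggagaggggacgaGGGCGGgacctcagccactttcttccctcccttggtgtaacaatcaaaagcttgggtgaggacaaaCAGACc
The first holds 1 GC box, and the second 1 GC box and 1 CAGAC.

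**Figure D3:**
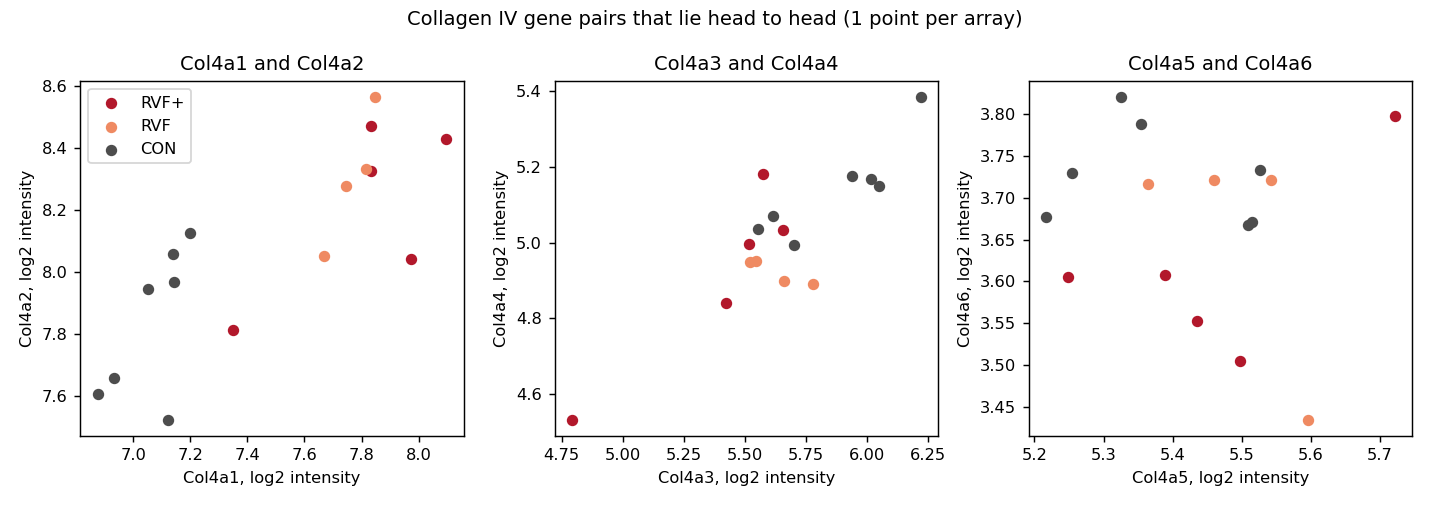
Log2 intensity of the 2 members of each collagen IV pair, 1 point an array, RVF+ in dark red, RVF in orange and CON in grey. For Col4a1 the RVF+ and RVF arrays lie to the right of CON, and in the middle panel RVF+ 8 stands alone at 4.79 for Col4a3 and 4.53 for Col4a4.

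Among the FACIT collagens 3 of 7 genes rose in RVF+ and 1 in RVF, and 0 fell in either (limma; at an unadjusted p under 0.05 only Col9a1 was lower, in RVF, at 0.0337). Of all genes 14.1% were higher in RVF+ and 8.86% in RVF, and a count of 1 in RVF is near that share. Col14a1 encodes collagen XIV, which binds collagen I fibrils and is found in soft connective tissue. It measured 8.54, 9.22, 9.15, 9.02 and 9.36 in RVF+, 9.43, 9.18, 8.94 and 9.18 in RVF and 8.13 to 8.55 (median 8.18) in CON. RVF+ 8 was the lowest RVF+ array here and just within the CON range, in contrast to the fibrillar genes. The rise was 0.80 ± 0.12 in RVF+ and 0.92 ± 0.13 in RVF (adjusted p = 0.000137 and 0.000107), and 0.93 ± 0.099 in RVF+ without RVF+ 8.

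Col12a1 encodes collagen XII, a fibril-surface collagen of tendon and other tissue under tension. The levels were 8.26, 6.19, 6.63, 5.62 and 6.13 in RVF+, 6.22, 6.06, 5.94 and 6.05 in RVF and 4.76 to 5.54 (median 5.19) in CON. No RVF+ or RVF array overlapped CON, and RVF+ 8 lay far above the next array, RVF+ 10. In RVF+ the gene rose 2.69-fold (1.43 ± 0.30, adjusted p = 0.00183), or by 1.01 ± 0.16 without RVF+ 8 (adjusted p = 0.000130). In RVF the difference of 0.93 ± 0.32 did not pass with all arrays (adjusted p = 0.0563). It passed without RVF+ 8, which enters that comparison only through the shared estimate of the spread (adjusted p = 0.000258), and in a fit of the RVF and CON arrays alone (adjusted p = 7.07e-05).

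Col16a1, a FACIT of several connective tissues, was dim, with 5.00, 5.06, 4.66, 4.95 and 4.74 in RVF+, 4.73, 4.62, 4.60 and 4.88 in RVF and 4.39 to 4.85 (median 4.59) in CON. The groups overlapped, with 3 of 5 RVF+ arrays and 1 of 4 RVF arrays above CON. It rose by 0.29 ± 0.090 in RVF+ (adjusted p = 0.0220) and no longer passed when RVF+ 8 (adjusted p = 0.0518) or RVF+ 9 was left out. In RVF it had 0.11 ± 0.096 and did not pass. Col19a1, a FACIT of muscle and brain development, had 0.35 ± 0.13 in RVF+ (adjusted p = 0.0595) and 0.13 ± 0.14 in RVF, and its dimmer second probe set gave -0.12 and -0.070. Col9a1, Col9a2 and Col9a3, the chains of cartilage collagen IX, lay between -0.20 and 0.035 in both comparisons and did not pass.

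The beaded class also held differences of both signs. In RVF+ 1 of 6 genes rose and 1 fell, and in RVF 1 fell and no other passed. That is 33.3% and 16.7% of the class, near the 27.7% and 17.1% of all genes that passed in either direction. Col6a1, Col6a2 and Col6a3 encode the chains of the classical collagen VI filament. Of these Col6a3 passed in RVF+, with 9.33, 8.25, 7.78, 7.56 and 8.22 in RVF+, 8.26, 8.46, 8.06 and 8.05 in RVF and 7.38 to 7.75 (median 7.59) in CON. RVF+ 8 lay far above its group, RVF+ 11 was inside the CON range, and all RVF arrays were above it. The difference was 0.65 ± 0.21 in RVF+ (adjusted p = 0.0264) and 0.38 ± 0.13 without RVF+ 8 (adjusted p = 0.0367). In RVF it was 0.64 ± 0.22 (adjusted p = 0.0597), and passed without RVF+ 8 (adjusted p = 0.00120).

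Col6a1 read 9.17, 8.30, 8.37, 8.08 and 8.39 in RVF+, 8.66, 8.62, 8.15 and 8.31 in RVF and 7.93 to 8.25 (median 8.10) in CON. Its differences of 0.38 ± 0.14 in RVF+ and 0.36 ± 0.16 in RVF did not pass (adjusted p = 0.0576 and 0.131), nor did those of Col6a2, at 0.37 ± 0.14 and 0.39 ± 0.15 (adjusted p = 0.0640 and 0.0914). Without RVF+ 8 both passed in RVF (adjusted p = 0.0132 and 0.00553) and neither in RVF+ (adjusted p = 0.150 and 0.168), where their differences were 0.21 ± 0.099 and 0.19 ± 0.096.

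Col6a6, which encodes an additional chain related to Col6a3, went the other way and had the largest fall of the family. It was 3.91, 4.27, 4.08, 4.15 and 4.06 in RVF+, 4.24, 4.13, 4.08 and 4.26 in RVF and 4.48 to 5.64 (median 4.93) in CON. Neither RVF+ nor RVF overlapped CON, and both groups were tight where CON was wide. The gene was 1.88-fold lower in RVF+ (-0.91 ± 0.15, adjusted p = 0.000289) and 1.77-fold lower in RVF (-0.82 ± 0.16, adjusted p = 0.00189). Its mean level lay below the median of all genes. Every alternative that tested the gene kept this call.

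The 250 bases before the Col6a6 start (RefSeq, GRCr8, chr8:115352162-115352411, minus strand) are shown for the gene that fell most, with GC boxes in capitals.
Col6a6: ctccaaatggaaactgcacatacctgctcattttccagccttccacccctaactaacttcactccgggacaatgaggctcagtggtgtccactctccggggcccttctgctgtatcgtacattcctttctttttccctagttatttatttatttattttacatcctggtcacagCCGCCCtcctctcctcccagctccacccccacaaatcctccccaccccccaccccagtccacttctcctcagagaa
The stretch holds 1 GC box and no CCAAT box, TATA box or SMAD-type box.

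Col6a4, another chain of that kind, and Col28a1, a collagen with von Willebrand A domains described around nerve in mouse, were dim and did not pass, at -0.16 ± 0.074 and -0.27 ± 0.11 in RVF+ and -0.099 ± 0.079 and -0.35 ± 0.12 in RVF. Col28a1 had an adjusted p of 0.0876 in RVF+ and 0.0575 in RVF, and was lower in RVF without RVF+ 8 (adjusted p = 0.0416).

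The 2 multiplexins, collagens of the basement membrane zone that carry fragments with effects on vessels, differed from each other. Col18a1, the source of endostatin, was 6.07, 5.87, 6.15, 5.40 and 5.62 in RVF+, 5.63, 5.76, 5.94 and 5.78 in RVF and 5.00 to 5.28 (median 5.09) in CON. No RVF+ or RVF array overlapped CON. It rose by 0.69 ± 0.11 in RVF+ and 0.65 ± 0.12 in RVF (adjusted p = 0.000193 and 0.000991). Col15a1, whose product is found around capillaries and muscle cells, was bright, with 8.03, 8.11, 8.04, 7.48 and 8.21 in RVF+, 8.12, 8.25, 8.18 and 8.18 in RVF and 7.98 to 8.40 (median 8.24) in CON. The groups overlapped and the gene did not pass, with -0.21 ± 0.11 in RVF+ (adjusted p = 0.181) and -0.0024 ± 0.12 in RVF (adjusted p = 0.993). RVF+ 11 was its lowest array.

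The transmembrane collagens Col13a1, Col17a1 and Col23a1, anchoring fibril Col7a1 and Col26a1 did not pass. Their differences ran from 0.0039 to 0.11 in RVF+ and from -0.13 to 0.16 in RVF, with mean levels of 3.71 to 4.60, below the median of all genes.

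**Figure D4:**
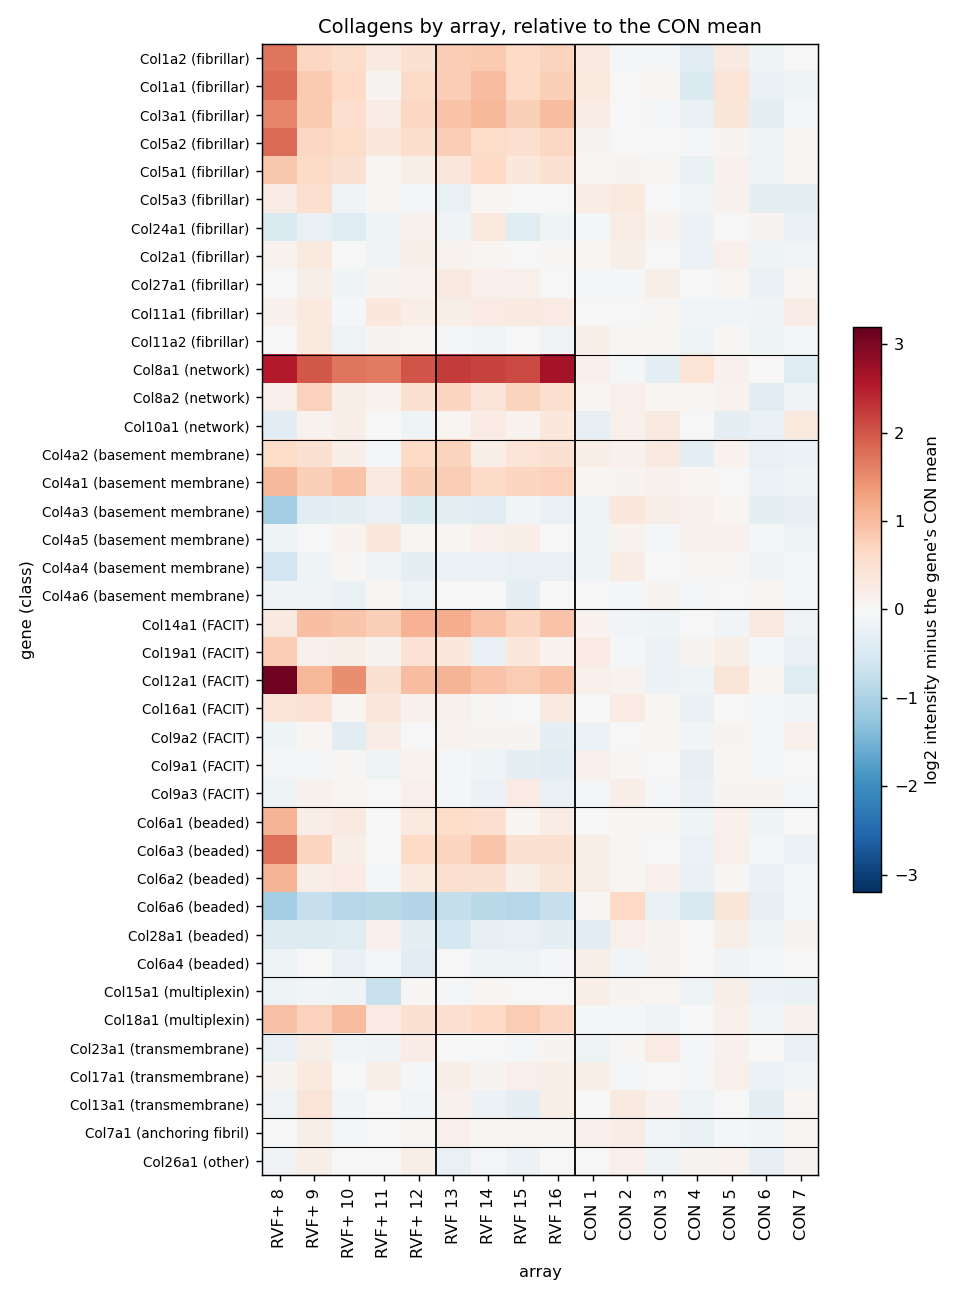
Log2 intensity of each collagen (row, by class) in each array (column) minus the CON mean of the gene, red above and blue below it. The row of Col8a1 is red in every RVF+ and RVF array, Col12a1 is the deepest red in the column of RVF+ 8, and Col6a6 is blue throughout RVF+ and RVF.

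RVF+ and RVF were compared with each other directly, which asks whether the collagens part these groups. No collagen passed (0 of 40, limma; 0 at an unadjusted p under 0.05; 0% of all genes passed, with 1242 at an unadjusted p under 0.05), and 0 passed in any alternative. No collagen had all its RVF+ arrays above or below all RVF arrays. The largest differences were 0.50 ± 0.35 for Col12a1 (95% interval -0.23 to 1.23), -0.31 ± 0.18 for Col8a1 (95% interval -0.69 to 0.074) and -0.24 ± 0.13 for Col8a2 (95% interval -0.51 to 0.033). For Col1a1 the interval was -0.51 to 0.51 and for Col3a1 -0.58 to 0.25, the differences that these 5 and 4 arrays leave compatible with the data. The spread was wider in RVF+ for the genes in which RVF+ 8 was high, chosen after their values were seen: the SD of Col1a1 was 0.62 in RVF+ and 0.14 in RVF, that of Col12a1 1.01 and 0.12, and that of Col6a3 0.68 and 0.19.

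**Figure D5:**
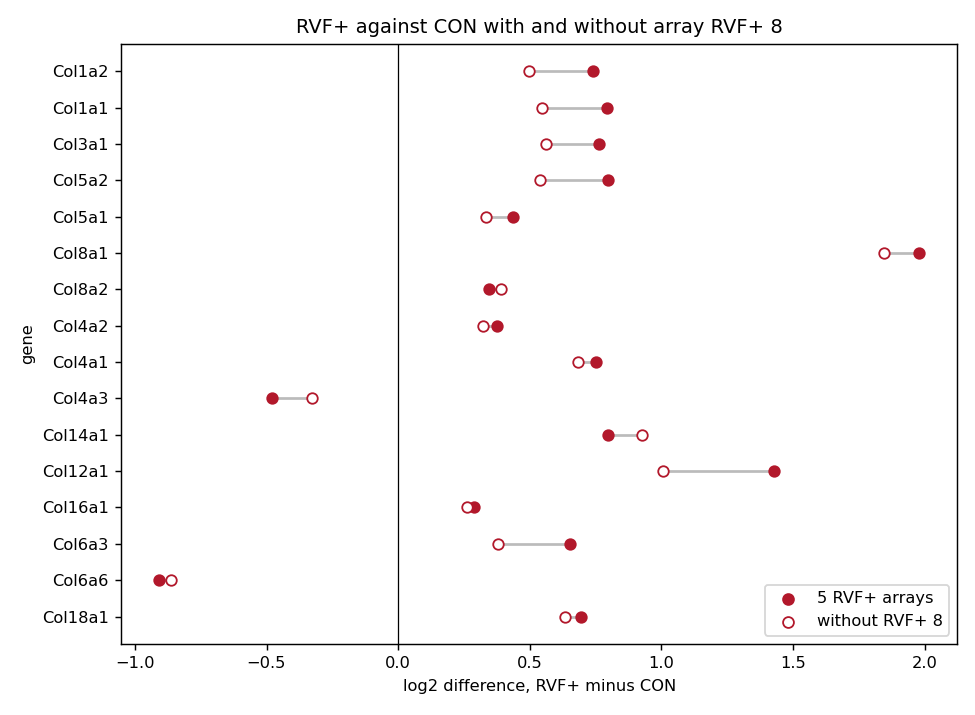
Log2 difference of RVF+ minus CON for the 16 collagens that passed in either comparison with CON, with all 5 RVF+ arrays (filled) and without RVF+ 8 (open). All keep their sign; Col12a1 stands at 1.43 with all arrays and 1.01 without RVF+ 8, Col6a3 at 0.65 and 0.38, and Col14a1 at 0.80 and 0.93.

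How the collagens varied together among controls was read in the 7 CON arrays, as the correlation of Col1a1 with Col1a2, Col3a1 and the gene of highest mean in the network, basement membrane, FACIT, beaded and multiplexin classes, 7 relations in all. Col1a1 varied with Col1a2 (Pearson's r = 0.95, exact permutation p = 0.00357, adjusted 0.0153; Spearman's rho = 0.86, p = 0.0238), Col3a1 (r = 0.92, p = 0.00635, adjusted 0.0153; rho = 0.93, p = 0.00675) and Col15a1 (r = 0.90, p = 0.00655, adjusted 0.0153; rho = 0.79, p = 0.0480), all by exact permutation with n = 7. Col6a1 had r = 0.87 (exact permutation p = 0.0131, adjusted 0.0229; rho = 0.86, p = 0.0238) and Col4a2 r = 0.80 (exact permutation p = 0.0351, adjusted 0.0492; rho = 0.75, p = 0.0663). Of the 7 rank correlations only that with Col3a1 passed after adjustment (0.0472). With the 2 arrays farthest from the Col1a1 median left out, r was 0.85 for Col1a2, 0.92 for Col3a1, 0.95 for Col15a1, 0.62 for Col6a1 and 0.83 for Col4a2, over 5 arrays. Col8a1 (r = -0.088, exact permutation p = 0.850; rho = -0.036, p = 0.963) and Col14a1 (r = -0.24, exact permutation p = 0.620; rho = -0.32, p = 0.498) showed no such relation; without the same 2 arrays their r was 0.49 and -0.11. All values of an array share its RNA and its normalization. The share of all genes that vary this closely with Col1a1 was not counted, so these relations are not shown to be particular to collagens. CON 4 had the lowest Col1a1 of the group (7.99) and the highest Col8a1 (6.65).

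The genes that modify, process and bind collagen were counted from lists written with earlier results of these data known. Their counts are read against the 14.1% of all genes higher and 13.6% lower in RVF+ and the 8.86% higher and 8.29% lower in RVF. In collagen modification and folding 10 of 19 genes rose in RVF+ and 5 in RVF and no other passed, with median differences of 0.33 and 0.30. They were led by P3h2, a prolyl hydroxylase (1.14 in RVF+, 1.00 in RVF), Plod2, the lysyl hydroxylase that shapes crosslinks (1.82 and 1.52), and the chaperone Fkbp10 (0.83 and 0.57). Crosslinking genes rose in 5 of 6 cases in RVF+ and 4 of 6 in RVF, and no other passed. They include transglutaminase Tgm2 (1.15 and 1.21) and the lysyl oxidase relatives Loxl1 (1.59 and 1.85) and Loxl2 (0.99 and 1.23). Among 10 export and processing genes 3 rose and 1 fell in both comparisons: Pcolce, which enhances removal of the collagen I propeptide, rose (0.94 and 0.98), as did the propeptidase gene Adamts2 (0.37 and 0.47), and its relative Adamts3 fell (-0.88 and -0.88).

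Fibril-binding regulators rose in 6 of 11 cases in RVF+ and 5 in RVF, and no other passed. They were led by Bgn (1.21 and 1.34), Fn1 (1.73 and 1.10) and Postn (3.37 and 3.25), which encode biglycan, fibronectin and periostin. Collagen receptors rose in 3 of 9 cases in RVF+, beside 14.1% of all genes, and in 2 in RVF, beside 8.86%, and no other passed. Among them were the integrin chain Itgb1 (0.55 and 0.55). Mrc2, which takes up collagen fragments, had 0.42 and 0.38, and the integrin chain Itga2 0.41 and 0.15, and both passed in RVF+. Of the collagen-degrading enzymes 4 of 10 rose and 1 fell in both comparisons. Ctsk, which cleaves collagen in lysosomes, rose (1.24 and 1.09), as did the protease Fap (1.18 and 1.13), and the membrane protease Mmp15 fell (-0.95 and -0.51).

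The median differences in RVF+ and RVF were 1.02 and 0.95 for crosslinking, 0.54 and 0.36 for degrading enzymes, 0.34 and 0.41 for fibril-binding regulators, 0.14 and 0.069 for export and processing and 0.14 and 0.11 for receptors, beside -0.012 and -0.0087 over all genes. Without RVF+ 8 the counts in RVF+ were 8 higher in modification and folding, 3 higher and 2 lower in export and processing, 5 higher in crosslinking, 6 in fibril-binding and 3 in receptors, and 4 higher and 1 lower among degrading enzymes.

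Markers of the cells in the wall moved beside the collagens, and their part in the results was not tested. Of all genes 14.1% were higher and 13.6% lower in RVF+, and 8.86% higher and 8.29% lower in RVF. Fibroblast markers had 5 of 12 genes higher and 1 lower in RVF+ and 5 higher in RVF, with no other passing. Thy1, Dpt, Mfap5, Pi16 and Lamc1 rose in both, and Dpep1 fell in RVF+. Pdgfra (-0.042 in RVF+ and -0.13 in RVF), Tcf21 (-0.083 and -0.099), Gsn (-0.10 and -0.014) and Ddr2 (-0.098 and 0.088) did not pass. Nor did Cd34 (0.24 and 0.21) and Medag (0.45 and 0.29). The summed level of the fibroblast markers ran from 13.1 to 13.7 in RVF+, 13.5 to 13.6 in RVF and 13.1 to 13.3 in CON. RVF+ 8, the highest array for collagen I and III, was the lowest RVF+ array for this sum. All 7 measured myofibroblast markers rose in RVF+ and 5 in RVF, their sums being 10.2 to 11.5 in RVF+, 10.7 to 10.9 in RVF and 8.73 to 9.22 in CON, and here RVF+ 8 was the highest. They were Tagln, Postn, Cthrc1, Fap, Cilp, Meox1 and Ccn2, of which Tagln and Meox1 did not pass in RVF. Acta2 and Comp, also among the 9 listed, were not measured. Postn and Fap were counted in the collagen lists above as well.

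Macrophage markers rose in 10 of 10 cases in RVF+ and 6 in RVF, with sums of 11.3 to 12.6, 10.9 to 11.5 and 10.3 to 10.9 in RVF+, RVF and CON, RVF+ 8 again the highest. Endothelial markers rose in 1 of 8 cases in RVF+ and in 0 in RVF (limma, 0 at an unadjusted p under 0.05; sums 11.5 to 12.2, 11.6 to 11.8 and 11.5 to 11.7 in the same order), smooth muscle and pericyte markers in 3 of 10 in each (11.9 to 12.4, 12.2 to 12.5 and 12.1 to 12.3). The endothelial count in RVF+ is near the 14.1% of all genes. Cartilage markers, which bear on Col2a1, Col9a1, Col10a1 and Col11a1, rose in 1 of 9 cases in each, near the 14.1% and 8.86% of all genes, and their sums overlapped (7.69 to 8.77, 8.21 to 8.48 and 8.04 to 8.56). Schwann cell markers rose in 2 of 5 and 1 of 5 cases (10.2 to 10.7, 10.3 to 10.7 and 9.73 to 10.2). Pmp22 (0.59 in RVF+ and 0.57 in RVF) passed in both and Mbp (0.35 and 0.30) in RVF+. Sox10 (-0.20 and -0.34), S100b (-0.038 and 0.20) and Prx (0.048 and -0.023) did not pass. Pmp22 carried most of the sum, with means of 10.4, 10.4 and 9.78. Epicardial and mesothelial markers rose in 1 of 7 and 2 of 7 (7.94 to 8.47, 8.04 to 9.07 and 7.71 to 8.27). The 1 of 7 is near the 14.1% of all genes. The 9.07 was array RVF 14, beside an RVF median of 8.10. Cardiomyocyte markers, which were bright in every array as the tissue label implies, rose in 3 of 13 cases and fell in 5 in RVF+ and rose in 3 in RVF with no other passing (15.2 to 15.6, 15.6 to 15.7 and 15.5 to 15.6). RVF+ 8 had the lowest cardiomyocyte sum of the 16 arrays. The 3 genes that rose were Myh7 (0.80 in RVF+ and 0.87 in RVF), Nppa (4.26 and 4.57) and Nppb (2.70 and 2.76). The median difference of the cardiomyocyte list was -0.27 in RVF+ and -0.11 in RVF. Atrial markers had 2 of 5 higher and 1 lower in RVF+ and 1 higher and 3 lower in RVF (11.8 to 12.3, 12.3 to 12.7 and 9.90 to 11.6). Nppa, the atrial natriuretic peptide gene, had 4.26 in RVF+ and 4.57 in RVF, while the median difference of the list was -0.68 and -0.67, with Tbx5 at -0.68 and -0.67 and Sln at -1.49 and -1.86. Myl7, which marks atrial muscle, ran from 6.09 to 8.24 in RVF+, 5.67 to 7.26 in RVF and 6.22 to 10.79 in CON. Without RVF+ 8 the RVF+ counts were 6 higher and 1 lower for fibroblast, 6 higher for myofibroblast, 10 for macrophage and 2 for endothelial markers, and 3 higher and 5 lower for cardiomyocyte markers. No marker was at 0, since RMA values have no zero.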

How the data were processed

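RNA of right ventricular wall, 500 ng for each of 16 samples, was labelled and hybridised to 16 arrays. The authors deposited 1 linear intensity per probe set and array (2.20 to 10294), and RMA is the tool in the submitters' processing notes. Neither the program that ran it nor an array build is given in these sources. The deposited intensities were converted to log2 and not normalized again. Of 29214 probe sets, 18644 had 1 symbol, and the probe set with the highest mean was kept for each of 17245 genes. One limma (3.58.1) fit over the 3 groups gave all differences, with Benjamini-Hochberg adjustment at 0.05 in each comparison. It had 13 residual and 4.45 prior degrees of freedom and was tested on simulated data. The number of arrays limits the precision.

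Groups come from the condition labels, and numbers from the titles, which name the same groups. The members, classes, gene lists and tests were chosen with earlier results of these data known. Values per array are given for each collagen that passed in any comparison and for the brightest of the main classes, and of each pathway list the 3 genes with the smallest p in RVF+ against CON are named. Alternatives were quantile normalization, median centring, a filter on dim genes, averaging the probe sets of each gene, 2 groups in the fit, trend and robust moderation, array weights, a minimum change of 1.2-fold and leaving out each array. Promoter windows are from RefSeq (GRCr8).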

Additional observations from a re-analysis of the deposited data

Results flagged for a closer look

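In 10 of 120 gene and group combinations 1 array was separated from its own group by Dixon's test at 95%, where chance gives about 1 in 20, or 6. RVF+ 8 was that array for Col1a2 (10.41, nearest 9.35), Col5a2 (8.07, nearest 6.91), Col6a1 (9.17, nearest 8.39) and, at the low end, Col4a3 (4.79, nearest 5.42). RVF+ 11 was the highest RVF+ array for Col28a1 (3.67, nearest 3.19) and the lowest for Col15a1 (7.48, nearest 8.03). RVF+ 9 was the highest for Col13a1 (4.39, nearest 3.97). In RVF the lowest array stood apart for Col11a1 (RVF 13, 4.37, nearest 4.46), Col4a6 (RVF 15, 3.43, nearest 3.72) and Col9a2 (RVF 16, 3.94, nearest 4.32). Of these 10 genes, Col1a2, Col5a2 and Col4a3 were among the collagens that passed in RVF+ against CON.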

How the results depend on the processing

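None of the 16 collagens that passed against CON changed direction under the alternatives that tested it, and of their 760 values 701 stayed on their side of the threshold, 49 lost the call and 10 gained it. Among the collagens that did not pass, the small differences of Col7a1, Col9a1, Col9a2, Col9a3, Col10a1, Col13a1, Col23a1 and Col26a1 in RVF+ against CON, and of Col5a3, Col9a2, Col9a3, Col13a1, Col15a1, Col23a1 and Col24a1 in RVF against CON, changed sign in some alternative (Col10a1 in RVF+ was -0.026 with all arrays and 0.049 without RVF+ 8). The count of collagens higher in RVF+ against CON, 14 with all arrays, was 6 with a minimum change of 1.2-fold and ran from 11 (without RVF+ 9) to 17 (without RVF+ 11) with 1 array left out. The calls lost with that minimum were Col1a1, Col1a2, Col3a1, Col5a1, Col8a2, Col4a2, Col16a1 and Col6a3. The count lower, 2, was 5 with median centring and 1 with the dim genes removed, with array weights and with the 1.2-fold minimum, and ran from 2 to 3 with 1 array left out. In RVF against CON the count higher, 11, was 4 with the 1.2-fold minimum and ran from 8 (without RVF 13) to 16 (without RVF+ 8). There the calls lost with the minimum were Col1a1, Col1a2, Col5a1, Col5a2, Col8a2, Col4a2 and Col18a1. The count lower, 1, was 2 with median centring, 0 with the dim genes removed, where fewer collagens were tested, 3 with RVF and CON alone and 4 with array weights, and ran from 1 to 2, being 2 without CON 1, CON 4, RVF+ 8 or RVF+ 11. The cause of these moves was otherwise not tested. Median centring moved the split over all genes to 1998 higher and 3004 lower in RVF+ against CON, from 2423 and 2348, and to 1333 and 1700 in RVF against CON, from 1528 and 1429.

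Within an array, Col1a1 minus Col3a1 in RVF against CON was -0.18 without CON 4, where it passed, and ran to -0.11 without RVF 16. In RVF+ against CON it ran from -0.018 (without RVF+ 8) to 0.075 (without RVF+ 11), and in RVF+ against RVF from 0.12 to 0.21. In RVF+ against RVF 0 collagens passed in every alternative. No paired analysis was possible because the arrays are numbered 1 to 16 across the groups and no number is shared. The number of arrays limits which small changes can be seen.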
